A study of Mus musculus with 4 samples.

Results

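The 8 epithelial keratins Krt5, Krt7, Krt8, Krt14, Krt15, Krt18, Krt19 and Krt20 were followed in whole mouse kidney after ischemia-reperfusion, an injury in which the blood supply of the kidney is blocked and then restored. They were chosen by name, and all 12 probe sets that the array annotation assigns to 1 of them alone were read, of 45037 probe sets and 18193 genes in all. The 4 groups were Tet2KO-labelled mice whose kidneys had 60 min without blood flow followed by 24 h of reperfusion, Tet2KO-labelled mice after sham surgery, wild-type mice after the same ischemia and reperfusion, and wild-type mice after sham surgery. The mice were male C57Bl/6 in all 4 groups. Each group was 1 array holding kidney RNA pooled from 3 mice, so no spread between mice or arrays could be computed and no difference below has a replicate check. The Tet2 protein converts methylated cytosine in DNA to oxidised forms; the age of the mice and the form of the Tet2 deletion are not given in the sources used here.

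Keratins are the intermediate filament proteins of epithelial cells. A filament forms only from a type I keratin (here Krt14, Krt15, Krt18, Krt19 and Krt20) paired with a type II keratin (here Krt5, Krt7 and Krt8). Krt8 and Krt18 are the pair of simple epithelia, Krt7 and Krt19 are found in ducts and in urothelium, the lining of the renal pelvis and bladder, Krt20 is known from the surface cells of urothelium and from intestine, and Krt5, Krt14 and Krt15 from basal cells of layered epithelia. In the normal kidney the simple pair is found mainly in ducts and distal segments, and injured tubules are known to make more keratin.

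Values are log2 signals on the authors' scale. Signals under 5.72, the 40th percentile of all signals, were set to that floor, and a gene counted as measured in a comparison where 1 or more of its arrays reached the floor. A fold against an array at the floor is a lower bound, written as at least N-fold. The column medians lay between 6.28 and 6.33. Agreement between probe sets was gauged from genes with several of them, as the within-gene SD of their log2 ratios. This probe-set SD was 0.39 for ischemia-reperfusion over sham in the knockout-labelled pair and 0.24 in wild type. For knockout-labelled over wild type it was 0.32 after ischemia-reperfusion and 0.19 after sham. Probe sets of a gene share the RNA pool, labelling and array. The probe-set SD therefore leaves out differences between these and is not the full error of a ratio. The 2 Tet2 probe sets read 9.87 and 10.25 in the sham array labelled knockout, against 9.96 and 9.84 in wild-type sham, so the sham array labelled knockout was 0.09 lower on one and 0.41 higher on the other, and after ischemia-reperfusion they read 8.74 and 8.60 in the knockout-labelled array and 9.16 and 9.30 in wild type. Whether these probe sets lie in the deleted part is not known here. Over the 4 arrays the loop of Henle gene Umod lay between 14.02 and 14.52 and the proximal tubule gene Slc34a1 between 12.30 and 13.51. Many markers of these segments were lower after injury. In the knockout-labelled pair, 8 of 10 loop and distal and 7 of 13 proximal markers were 2-fold or more lower, and 0 higher. Egf, of the loop and distal list, read 9.16 after injury and 13.78 after sham there. Of all measured genes 6.89% were lower and 6.06% higher. In whole-kidney RNA, a change in the number of cells of a type and a change in RNA per cell cannot be told apart.

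Krt20 differed most of the keratins. Its log2 signals were 13.06 in knockout-labelled ischemia-reperfusion and 5.00 in knockout-labelled sham, and 12.05 in wild-type ischemia-reperfusion and 5.77 in wild-type sham. The sham arrays thus lay under or just above the floor, and both injured arrays lay far above it. Krt20 was at least 162-fold higher after ischemia-reperfusion in the knockout-labelled pair, and 77.3-fold higher in wild type, the highest ratio of 13531 measured genes there. On the log2 scale these are at least 7.34 and 6.27; with the sham arrays exchanged as controls the ratios were 7.29 for knockout-labelled and at least 6.32 for wild-type ischemia-reperfusion. The floor holds these values together, since without it the sham arrays differed by -0.77, knockout-labelled minus wild type. Between the injured arrays Krt20 was 2.02-fold higher in the knockout-labelled one, a log2 ratio of 1.02. The probe-set SD there was 0.32, which leaves out differences between arrays. With a pseudocount of 50 added to the linear signal in place of the floor, the log2 ratios after ischemia-reperfusion were 6.71 in the knockout-labelled pair and 5.35 in wild type. With a floor at the 20th percentile the knockout-labelled log2 ratio was 8.06. Its single probe set leaves no second reading on the array.

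**Figure D1:**
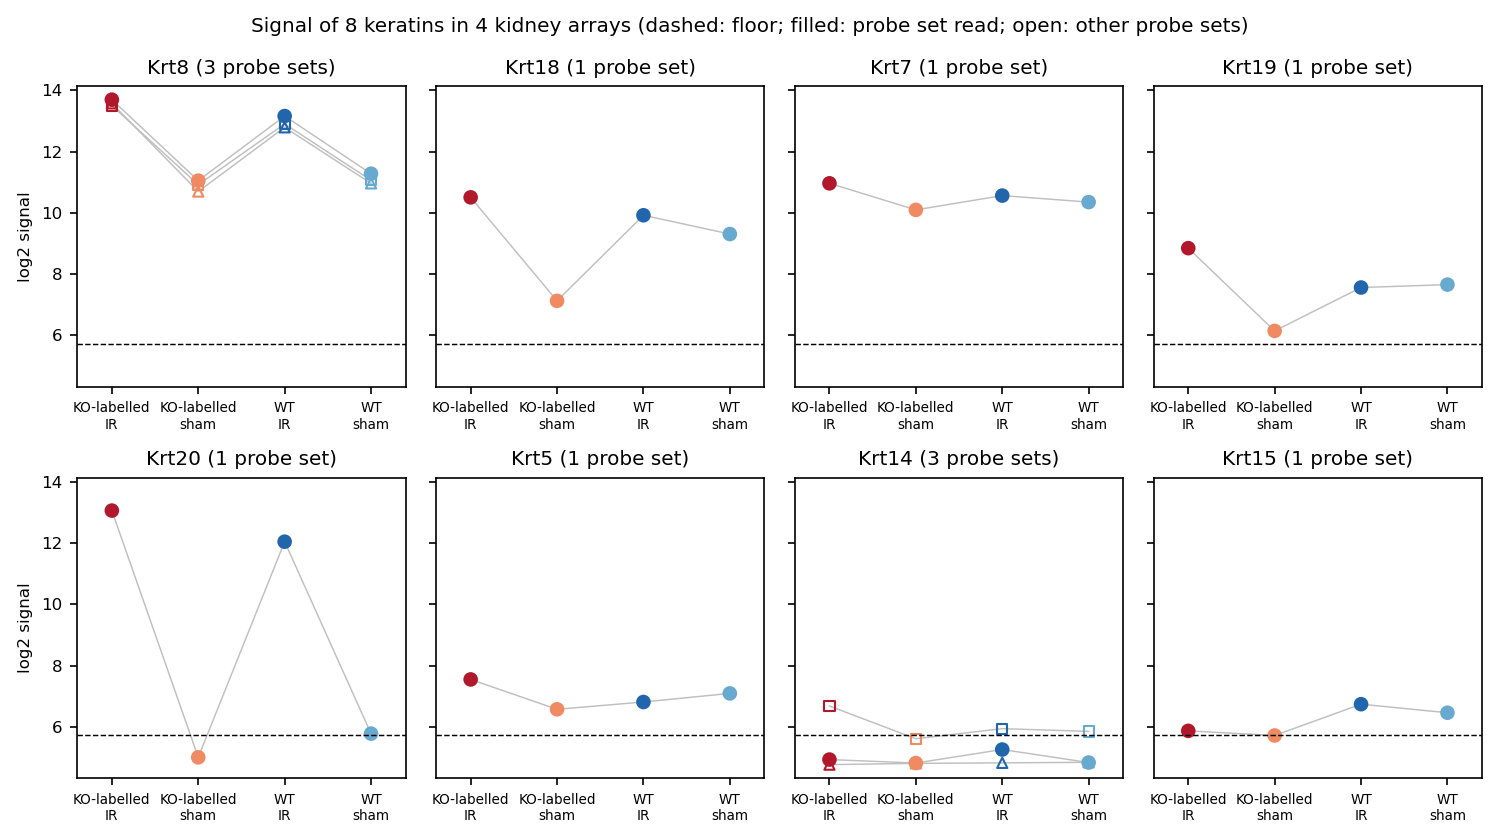
Log2 signal (vertical axis) of each keratin in the 4 arrays (horizontal axis), 1 point per probe set and array; grey lines join the points of a probe set, and the dashed line is the floor of 5.72. Krt20 stands at 13.06 and 12.05 in the injured arrays and at or near the floor in the sham arrays, while Krt18 and Krt19 are lowest in knockout-labelled sham.

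The promoters of Krt20 and of Krt8 and Krt18 are shown because Krt20 and Krt8 were the keratins at 2-fold or more after injury in both genotypes and Krt18 is the filament partner of Krt8. Each is the 250 bases before the transcription start, 5′ to 3′ on the gene's strand, from RefSeq on build GRCm38.p6; the capitals mark GGAATG, the core of the motif bound by TEAD factors, and TATAAA, a box that places the start of transcription, on either strand. Krt20 is chr11:99438154-99438403 on the minus strand, Krt8 is chr15:102004343-102004592 on the minus strand, and Krt18 is chr15:102027966-102028215 on the plus strand.
Krt20: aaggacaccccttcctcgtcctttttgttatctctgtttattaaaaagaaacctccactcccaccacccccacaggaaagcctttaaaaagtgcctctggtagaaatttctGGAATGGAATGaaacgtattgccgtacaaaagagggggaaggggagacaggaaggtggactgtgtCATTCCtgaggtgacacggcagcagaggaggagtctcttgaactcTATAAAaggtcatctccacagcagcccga
Krt8: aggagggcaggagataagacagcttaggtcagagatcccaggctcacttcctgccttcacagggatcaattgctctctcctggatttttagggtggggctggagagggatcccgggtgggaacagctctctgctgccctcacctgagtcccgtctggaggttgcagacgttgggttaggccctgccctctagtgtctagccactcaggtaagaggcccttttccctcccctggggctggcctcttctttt
Krt18: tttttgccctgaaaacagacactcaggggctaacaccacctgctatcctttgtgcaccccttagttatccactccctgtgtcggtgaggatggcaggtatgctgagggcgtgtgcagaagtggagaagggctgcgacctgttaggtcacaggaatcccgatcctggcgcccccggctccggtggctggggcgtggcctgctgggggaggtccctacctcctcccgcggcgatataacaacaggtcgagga
The Krt20 stretch held GGAATG 3 times, with the first bases 139, 134 and 74 bases before the start, the last on the opposite strand; the first 2 overlap by their shared G. It held 1 TATAAA, beginning 29 bases before the start. Of 32851 promoter stretches of this length, 12.6% held GGAATG, 30 (0.0913%) held it 3 or more times, and 12.4% held TATAAA. The Krt8 and Krt18 stretches held neither. TGANTCA, the letters of an AP-1 site, was in 6.75% of all stretches and in 0 of the 6 keratin promoters matched in the table, and GGGCGG, the GC box, was in 32.7% and occurred 4 times in the Krt7 stretch. The 6 matched were those of Krt5, Krt7, Krt8, Krt14, Krt18 and Krt20; Krt15 and Krt19 were not matched. Motifs were picked with the sequences and the values in view, and a match is a run of letters, not a shown binding site.

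Krt8 was higher in both injured arrays. Its log2 signals were 13.70 in knockout-labelled ischemia-reperfusion and 11.05 in knockout-labelled sham, against 13.16 in wild-type ischemia-reperfusion and 11.28 in wild-type sham. Both injured arrays were above both sham arrays. The fold after ischemia-reperfusion was 6.25 in the knockout-labelled pair and 3.69 in wild type. The other 2 Krt8 probe sets, of a kind whose probes can bind further transcripts, gave log2 ratios of 2.88 and 2.59 in the knockout-labelled pair, beside 2.64 for the one read. In wild type they gave 1.83 and 1.84, beside 1.88. The 3 readings therefore spread over less than the probe-set SD in each pair.

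Krt18, the type I partner of Krt8, differed from it in the responses to injury. Its log2 signals were 10.51 in knockout-labelled ischemia-reperfusion and 7.12 in knockout-labelled sham, against 9.92 in wild-type ischemia-reperfusion and 9.31 in wild-type sham. The low array was knockout-labelled sham, and the other 3 lay within 1.20 of each other. Krt18 was 10.4-fold higher after ischemia-reperfusion in the knockout-labelled pair and 1.53-fold higher in wild type. Between the sham arrays it was 4.54-fold lower in the knockout-labelled one, the 13th lowest ratio of 13474 measured genes, while Krt8 was 1.17-fold lower there. Unlike Krt8, Krt18 was read from 1 probe set, as was Krt19, so their low sham values have no second reading on the array. The Krt8 log2 ratio was 1.27 above that of Krt18 in wild type and 0.74 below it in the knockout-labelled pair. Between the injured arrays the partners differed alike, with log2 ratios of knockout-labelled over wild type of 0.54 for Krt8 and 0.59 for Krt18. With the sham arrays exchanged as controls, Krt18 had log2 ratios of 1.20 for knockout-labelled and 2.80 for wild-type ischemia-reperfusion, so the size and order of its response depended on the sham array used. Krt8, with log2 ratios of 2.42 and 2.11 on the exchanged controls, moved by less than the probe-set SD. On chromosome 15 the genes Krt8 and Krt18 are neighbours with 2 other annotated genes between them, 0 of them protein-coding.

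Krt19, a small type I keratin of ducts, had the pattern of Krt18 with a smaller wild-type value. Its log2 signals were 8.84 in knockout-labelled ischemia-reperfusion and 6.14 in knockout-labelled sham, against 7.56 in wild-type ischemia-reperfusion and 7.65 in wild-type sham. It was 6.51-fold higher after ischemia-reperfusion in the knockout-labelled pair and 1.07-fold lower in wild type. The sham arrays differed by 2.85-fold, lower in the knockout-labelled one, and the injured arrays by 2.44-fold, higher in the knockout-labelled one. Exchanging the sham arrays gave log2 ratios of 1.19 for knockout-labelled and 1.42 for wild-type ischemia-reperfusion, so the wild-type direction turned with the control. The knockout-labelled log2 ratio of Krt19 was 2.70, or 2.08 with the pseudocount in place of the floor. Krt7, a type II keratin of ducts, differed by less than 2-fold in each comparison. It had log2 signals of 10.96 in knockout-labelled ischemia-reperfusion and 10.10 in knockout-labelled sham, and of 10.56 in wild-type ischemia-reperfusion and 10.35 in wild-type sham. Its folds after ischemia-reperfusion were 1.82 in the knockout-labelled pair and 1.16 in wild type, both under 2. The wild-type log2 ratio of 0.21 was under the probe-set SD of 0.24, while the knockout-labelled one of 0.87 was above its SD of 0.39.

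The basal keratins were dim. Krt5, a type II keratin of basal cells, had log2 signals of 7.55 in knockout-labelled ischemia-reperfusion and 6.57 in knockout-labelled sham, against 6.81 in wild-type ischemia-reperfusion and 7.09 in wild-type sham. It was 1.97-fold higher after ischemia-reperfusion in the knockout-labelled pair and 1.22-fold lower in wild type. Krt15, a type I keratin of basal cells, was split by label and not by injury: it had 5.86 and 5.71 in the knockout-labelled injured and sham arrays, against 6.74 and 6.46 in the wild-type injured and sham arrays. It was 1.83-fold lower in the knockout-labelled array after ischemia-reperfusion and at least 1.66-fold lower after sham, and its difference stayed under 2-fold in both. Krt14, the usual partner of Krt5, was under the floor in all 4 arrays on 2 of its 3 probe sets, at 5.26 or less, and was not counted as measured. The third, whose probes can bind further transcripts, read 6.68 in knockout-labelled ischemia-reperfusion and 5.61 in knockout-labelled sham, against 5.94 in wild-type ischemia-reperfusion and 5.85 in wild-type sham. The 3 readings of Krt14 thus disagreed. A further probe set lists Krt14 together with another keratin and was not read.

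Over the 7 keratins measured, 4 had ratios of 2-fold or more upward and 0 downward after ischemia-reperfusion in the knockout-labelled pair (Krt8, Krt18, Krt19 and Krt20), where 6.06% of all measured genes were higher and 6.89% lower. Their median log2 ratio was 2.64, beside -0.02 over all measured genes. In wild type 2 were higher and 0 lower (Krt8 and Krt20), where 2.06% of all genes were higher and 2.18% lower, and the median was 0.28, beside 0.02 over all genes. Set against the knockout-labelled sham array, the wild-type injured array had a count of 5, adding Krt15, Krt18 and Krt19, and a median of 1.42. Krt15 was added at a log2 ratio of 1.01, with its sham signal set to the floor. Set against wild-type sham, the knockout-labelled injured array again had a count of 4, and the median was 1.19. The share of all genes was not computed for these exchanged comparisons, so their counts have no background beside them. Between the injured arrays 2 were higher and 0 lower in the knockout-labelled one (Krt19 and Krt20), where 3.68% of all genes were higher and 3.99% lower, and the median was 0.59. Between the sham arrays 0 were higher and 2 lower (Krt18 and Krt19), where 0.186% were higher and 0.846% lower, and the median was -0.52, with each of the 7 below 0, where 40.6% of all measured genes were below 0 and the median over all genes was 0.04. The Krt20 ratio there, a log2 ratio of -0.05, was set by the floor. The response of the knockout-labelled pair exceeded that of wild type by 2-fold or more for 4 of the 7 (Krt18, Krt19, Krt20 and Krt5), where 4.75% of genes had a larger and 4.77% a smaller ratio by that amount. The 5 comparisons reuse the same 4 arrays, so these counts are not independent of each other.

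**Figure D2:**
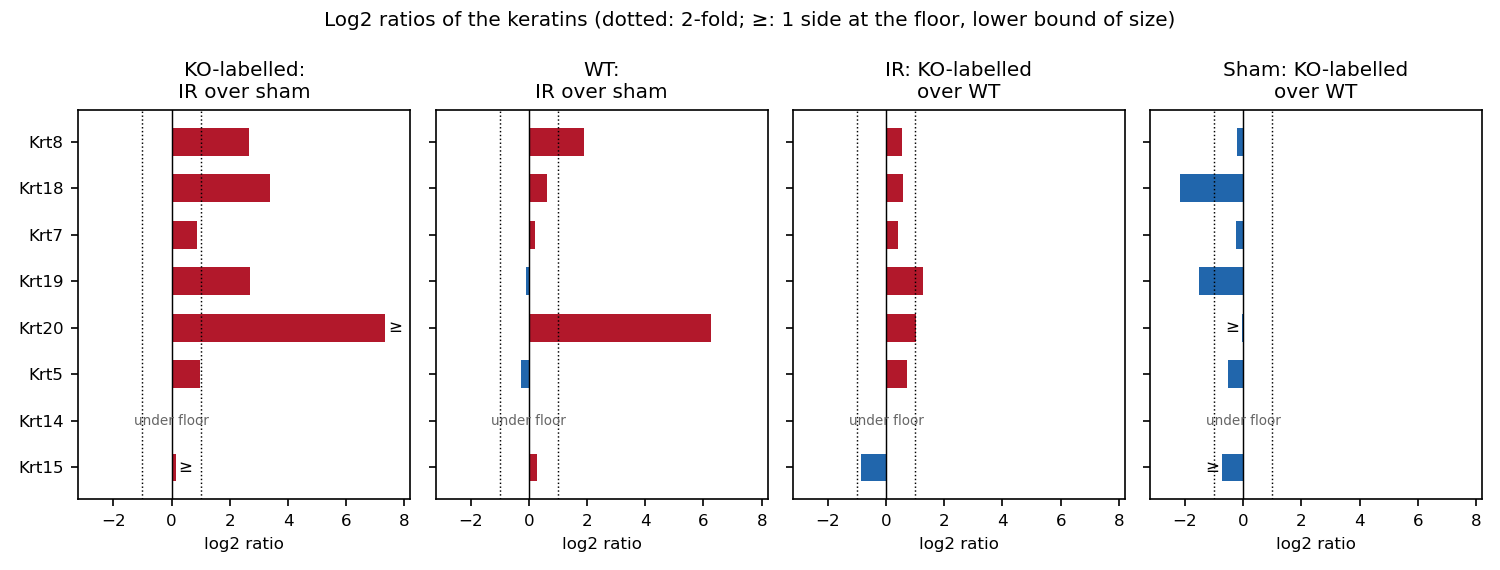
Log2 ratio (horizontal axis) of each keratin (vertical axis) in 4 comparisons of 1 array with 1 array; dotted lines mark 2-fold and the sign ≥ marks a lower bound on size. Krt20 and Krt8 pass 2-fold after injury in both pairs, and Krt18 and Krt19 pass it in the knockout-labelled pair and, downward, between the sham arrays.

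**Figure D3:**
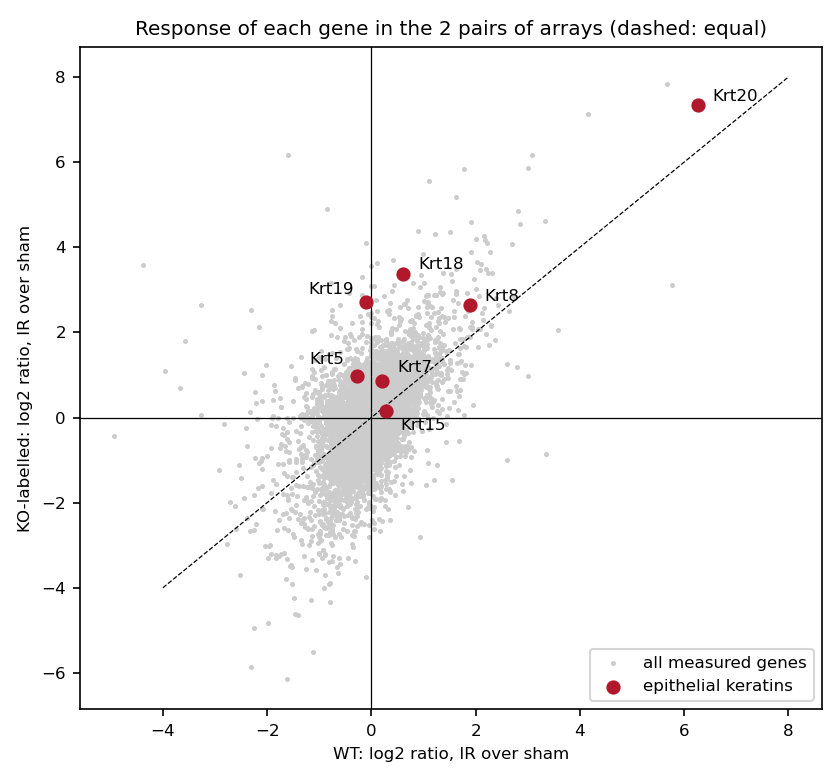
Log2 ratio of ischemia-reperfusion over sham in wild type (horizontal axis) and in the knockout-labelled pair (vertical axis) for the 13808 genes that reached the floor on any array (grey) and for the 7 keratins measured (red); the dashed line marks equal responses. Krt20 is at the upper right, at 7.34 on the vertical and 6.27 on the horizontal axis, and Krt18 and Krt19 lie well above the line.

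Of 40 further genes named Krt with a number, 22 were under the floor in all 4 arrays. Of the 18 that reached it, 0 differed by 2-fold or more in any of the 5 comparisons. The widest span over the 4 arrays was 0.69 on the log2 scale, for Krt10, a keratin of the upper epidermis. The share of all measured genes higher or lower ranged from 0.186% between the sham arrays to 6.89% in the knockout-labelled pair. With so few keratins measured, a count of 0 says little beside these shares. Other intermediate filament genes had 2 of 10 measured members higher after ischemia-reperfusion in the knockout-labelled pair and 0 in wild type, where 6.06% and 2.06% of all measured genes were higher. These were Vim, the filament protein vimentin of mesenchymal cells, 3.38-fold higher, and the nuclear lamin gene Lmna, 2.03-fold higher. Vim was also 3.84-fold higher in the knockout-labelled array when the injured arrays were compared.

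Genes of desmosomes, hemidesmosomes and cytolinkers, the structures that anchor keratin filaments to the membrane and to each other, had 7 of 14 measured members higher and 0 lower after ischemia-reperfusion in the knockout-labelled pair, with a median log2 ratio of 0.92. In wild type 1 of 15 was higher and 0 lower, with a median of 0.12. These counts, and the next ones, stand beside 6.06% of all measured genes higher and 6.89% lower in the knockout-labelled pair, and 2.06% higher and 2.18% lower in wild type. Plec, the filament linker plectin, was 4.64-fold higher in the knockout-labelled pair and 2.46-fold higher in wild type. The desmosomal cadherin Dsg2 was 3.63-fold higher in the knockout-labelled pair. Among genes for proteins that bind keratins or serve their turnover, 4 of 10 were higher in the knockout-labelled pair and 2 of 10 in wild type, with 0 lower in either. Hspb1, a small heat shock protein, was 10.3-fold higher in the knockout-labelled pair and 2.87-fold higher in wild type, and Sfn, a 14-3-3 protein of epithelial cells, was at least 3.22-fold higher in the knockout-labelled pair. Transcription factors of epithelia had 7 of 15 measured members higher in the knockout-labelled pair and 2 of 15 in wild type, with 0 lower in either. Klf6 was 7.35-fold higher in the knockout-labelled pair and 2.37-fold in wild type. Sox9, a factor of regenerating tubules, was 6.81-fold higher in the knockout-labelled pair. Between the sham arrays, 3 of 14 measured factors were lower in the knockout-labelled one, among them Klf5 (3.29-fold), and 0 were higher. Of the keratin-binding list 1 of 9 was lower there, Hspb1 by 2.17-fold, and of the desmosome list 0 of 14, with 0 higher in either. Of all measured genes 0.846% were lower and 0.186% higher. The knockout-labelled ratios of Klf5 and Hspb1 thus depended on the sham array used.

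Markers of cell states and of other cell types were counted beside the keratins. The shares of all measured genes to set beside these counts are 6.06% higher and 6.89% lower after ischemia-reperfusion in the knockout-labelled pair, 2.06% higher and 2.18% lower in wild type, and 0.186% higher and 0.846% lower between the sham arrays. Of the tubular injury markers, 15 of 16 measured were higher after ischemia-reperfusion in the knockout-labelled pair and 12 of 16 in wild type. The summed linear signal of this list was 88427 in knockout-labelled ischemia-reperfusion, 6709 in knockout-labelled sham, 48522 in wild-type ischemia-reperfusion and 10459 in wild-type sham. Between the sham arrays, 2 of 16 were lower in the knockout-labelled one at 2-fold or more and 0 higher. These were Havcr1, 5.72-fold lower, and S100a6, 6.68-fold lower, so their ratios after ischemia-reperfusion depended on the sham array used. The median log2 ratio of the list between the sham arrays was -0.31. In the urothelium list, 8 of 10 measured members were 2-fold or more lower in knockout-labelled sham than in wild-type sham and 0 were higher. Its summed signal was 5023 in knockout-labelled ischemia-reperfusion, 961 in knockout-labelled sham, 3398 in wild-type ischemia-reperfusion and 2673 in wild-type sham. Without Sprr1a and Sprr2f, small proline-rich protein genes of that list, the sums were 1372 in knockout-labelled ischemia-reperfusion, 895 in knockout-labelled sham, 1245 in wild-type ischemia-reperfusion and 2200 in wild-type sham, so the order of the wild-type arrays rested on these genes. The uroplakin Upk3a had log2 signals of 5.92 in knockout-labelled sham and 7.56 in wild-type sham, and Psca had 7.01 and 8.81 in these 2 arrays. In knockout-labelled and wild-type ischemia-reperfusion Upk3a had 6.35 and 6.52, and Psca had 7.71 and 7.40. Both genes, like the sum without Sprr1a and Sprr2f, were highest in wild-type sham. Krt18 and Krt19 were instead highest in knockout-labelled ischemia-reperfusion. Trp63, a factor of basal urothelium, was under the floor in all 4 arrays. After ischemia-reperfusion the list had 4 of 11 members higher and 0 lower in the knockout-labelled pair, and 2 higher and 3 lower in wild type. The uroplakins Upk1a and Upk2 were above the floor in all 4 arrays and differed by less than 2-fold in each comparison. The adipose list also differed between the sham arrays, with 3 of 5 measured members lower in the knockout-labelled one and summed signals of 233 there and 2395 in wild-type sham. In knockout-labelled ischemia-reperfusion it summed to 1357, and in wild-type ischemia-reperfusion to 252. The mesothelium list had 4 of 8 members under the floor in all arrays, among them Msln, and the epidermis list 7 of 10, among them Krtdap and Flg. The collecting duct list, of the segment where simple keratins are known, had 0 of 11 members higher and 4 lower after ischemia-reperfusion in the knockout-labelled pair, and 0 higher and 2 lower in wild type. Proximal tubule markers had 7 of 13 lower in the knockout-labelled pair and 2 of 13 in wild type, and loop and distal tubule markers 8 of 10 and 3 of 10, with 0 higher in any of these. Podocyte, endothelial and fibroblast markers were lower in wild-type ischemia-reperfusion, with 5 of 6, 4 of 8 and 4 of 8 measured members lower at 2-fold or more; in the knockout-labelled pair 1 of 6, 1 of 8 and 2 of 8 were lower and 3, 0 and 3 were higher. The part of these cell types in the keratin values was not tested.

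**Figure D4:**
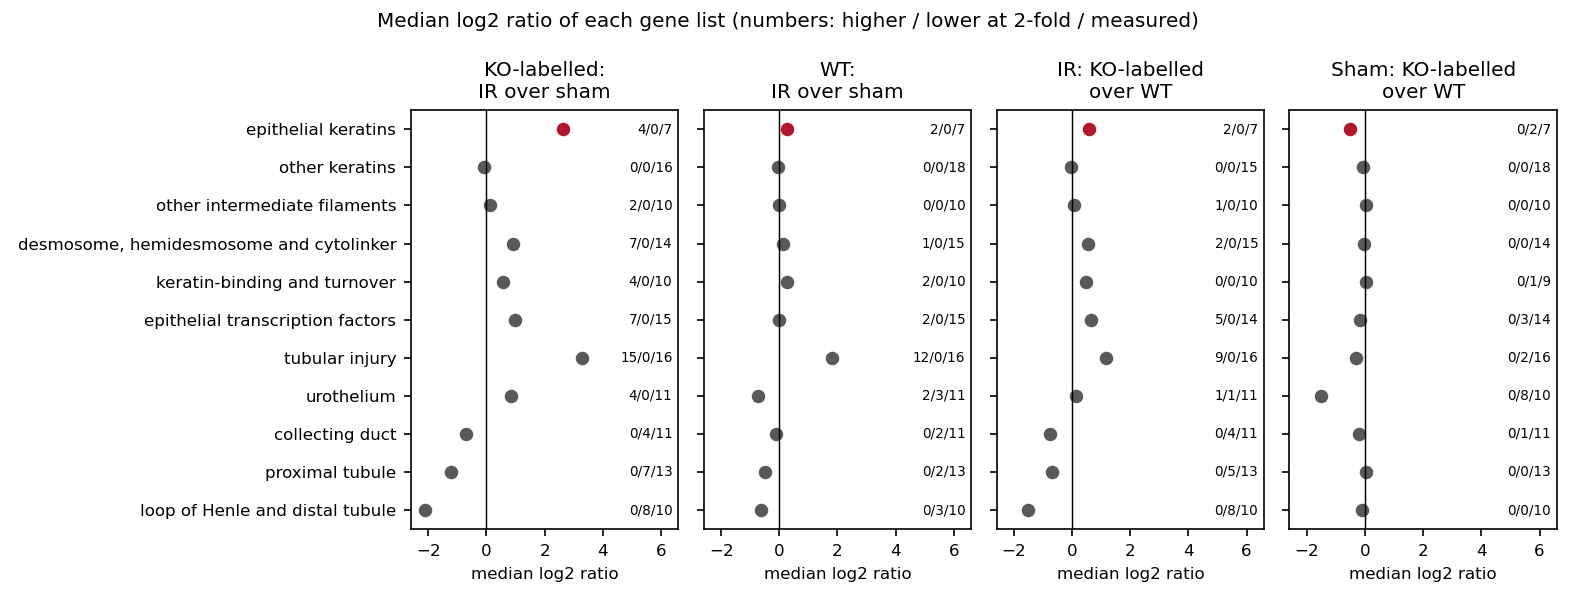
Median log2 ratio (horizontal axis) of the measured members of each gene list (vertical axis) in 4 comparisons; the numbers at the right of each panel give members higher, members lower at 2-fold or more, and members measured. The epithelial keratins stand at 2.64 and 0.28 after injury in the knockout-labelled and wild-type pairs, and the other keratins near 0 in all 4 panels.

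The genes with the patterns most like those of single keratins were found by the Euclidean distance between mean-centred log2 signals over the 4 arrays, among 13808 genes and with 1 probe set read per gene. A pattern over 4 arrays is easily matched, and the distances are a description only. Closest to Krt20 was Lcn2, at a distance of 0.56, followed by Havcr1 at 2.13, Fgg at 2.57 and Fgb at 2.71. Lcn2 had log2 signals of 13.57 in knockout-labelled ischemia-reperfusion and 12.03 in wild-type ischemia-reperfusion, and it was at the floor in knockout-labelled sham and at 6.36 in wild-type sham. Closest to Krt8 were Cftr, a chloride channel gene, at 0.12, Myc at 0.22, Isg20 at 0.23 and Cks1b at 0.28. Closest to Krt18 were Psat1 at 0.58, Cpe at 0.59, Hspb1 at 0.88 and Plet1 at 0.93. Krt19 was nearest to Plin4, a lipid droplet gene, at 0.14, then to Plat at 0.22, Fosl2 at 0.45 and the epithelial factor Klf5 at 0.49. Krt15 was nearest to Tspan8 at 0.12, Snap91 and Gm128 at 0.13 and Adi1 at 0.19. Among the 7 keratins measured the closest pair was Krt7 and Krt5 at 0.36, followed by Krt18 and Krt19 at 0.97. Krt8 and Krt18 lay 1.41 apart, with 417 genes nearer to Krt8, while seen from Krt18 the gene Krt8 ranked 35th. Krt5 and Krt7 spanned less than 1 over the 4 arrays and were not matched to other genes.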

How the data were processed

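RNA of whole kidneys was extracted with Trizol, biotin-labelled and hybridised to Affymetrix expression arrays, per the labels' protocols, with 1 array for each of 4 groups. The authors deposited log2 signals for 45037 probe sets; that they are log2 was read from their range of 2.51 to 14.97. MAS5, named in the submitters' processing notes, is a program that summarises the probes of a probe set; the version and scaling target are not given in the sources used here. The array annotation lists 1 gene symbol for 34945 probe sets, several for 932 and none for 9160. A gene was read from its probe set with the highest mean log2 signal, and a probe set ending in _x_at was used only where the gene had no other. Signals under the 40th percentile, a log2 signal of 5.72, were set to it. The 5 comparisons were log2 ratios, called at 2-fold or more. With 1 array per group no test was made, and precision is limited by that number of arrays. Alternatives were another probe set rule, another floor, a pseudocount of 50, quantile normalization and exchanged sham arrays. Only the ratios and calls were checked on simulated data, for genes well above the floor and with noise under the probe-set SD. The floor rule was checked on a constructed case. The choice of probe sets, the lists, the nearest patterns and the motif counts were not checked so. The keratins, the 16 other gene lists, the motifs and the rule for naming genes were chosen with earlier results of these data known. That rule takes every keratin, other keratins at 2-fold or more, at most the 2 highest and 2 lowest such members of a list in a comparison, and the 4 nearest patterns; Krt10, Umod, Slc34a1, Trp63, Upk1a, Upk2, Upk3a, Psca, Msln, Krtdap and Flg were named outside it, after their values were seen. Python 3.11.15, numpy 2.4.6 and pandas 2.3.3 were used.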

Additional observations from a re-analysis of the deposited data

Results flagged for a closer look

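Krt19 and Krt5 had opposite directions after ischemia-reperfusion in the 2 genotypes, and their responses differed by more than 2-fold. For Krt19 the knockout-labelled log2 ratio was 2.80 above that of wild type (2.70 against -0.10), and for Krt5 it was 1.26 above it (0.98 against -0.28). The wild-type value of Krt19 was under the probe-set SD of 0.24. Against the knockout-labelled sham array the wild-type log2 ratios were 1.42 for Krt19 and 0.24 for Krt5, so both wild-type directions turned with the control, and with a pseudocount of 50 in place of the floor the Krt5 difference was 0.91, under 2-fold. With 1 array per group the differences were not tested.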

How the results depend on the processing

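Of 179 single-keratin ratios recomputed under the alternatives, 4 came out on the other side of 2-fold and 3 had the other sign. Many of the 179 could not change. A keratin with 1 probe set keeps its value under another probe set rule, and one always above the floor keeps it with a lower floor. With exchanged sham arrays 9 ratios moved by the probe-set SD or more and 5 did not. All sign changes and all crossings of 2-fold but that of Krt5 came from that setting. With exchanged sham arrays the wild-type count of keratins higher was 5, against 2 with the own sham. The share of all genes was not computed for that setting. Its wild-type median log2 ratio was 1.42, against 0.28, and its knockout-labelled median was 1.19, against 2.64. That setting also turned Krt19 and Krt5 to the other sign in wild type and Krt15 in the knockout-labelled pair; the cause was not tested. The knockout-labelled median was 1.81 with a floor at the 20th percentile, where Krt14 counts as measured, and 2.08 with a pseudocount of 50 in place of the floor. Plain _at probe sets alone left 5 keratins measured, without Krt7 and Krt8, with 1 higher in wild type and a median log2 ratio of -0.74 between the sham arrays, against -0.52. With the pseudocount the log2 difference of the Krt5 responses was 0.91, under 2-fold, against 1.26. Quantile normalization and the median over probe sets moved no count or ratio of the keratins by the probe-set SD or more. The median could change only Krt8 and Krt14, the keratins with several probe sets. Signals near the floor, as for Krt20 after sham and Krt14, limit what these arrays can show.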
